A study of Mus musculus with 8 samples.

Results

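Hypoxia-inducible factors (HIFs) are transcription factors whose alpha subunits are made continuously and destroyed in cells that have enough oxygen and iron. Prolyl hydroxylases of the Egln family, which hold an iron atom in their active site, mark the alpha subunit with hydroxyl groups; the von Hippel-Lindau protein (Vhl) recognizes the mark and directs the subunit to the proteasome. When oxygen or iron is short the alpha subunit is spared, pairs with Arnt and turns on genes of glycolysis, blood vessel growth and iron uptake, among them Vegfa and the hydroxylase genes Egln1 and Egln3 themselves. Much of this control acts on protein, which arrays of RNA do not measure.

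The genes described are the alpha subunits Hif1a, Epas1 and Hif3a, their partner Arnt, the prolyl hydroxylases Egln1, Egln2 and Egln3, Vhl, the asparaginyl hydroxylase Hif1an and the target gene Vegfa. They were chosen by name, with every probe that the array carries for them, and make up 10 of the 16593 genes and 20 of the 25697 probes on the array. A probe was taken as detected where its detection p, which sets a signal against the array's negative controls, was under 0.01 in all arrays of 1 or both groups. By that filter 8 of the 10 genes and 11 of their 20 probes were detected, out of 8051 genes and 11204 probes in all.

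RNA came from brain of male Hfe-/-xTfr2mut mice and male Wildtype mice, with 4 arrays in each group. All mice were of the AKR strain and 13 weeks old. Hfe-/-xTfr2mut mice were homozygous for the disrupted Hfe gene and for the Tfr2 mutation, 2 regulators of systemic iron uptake, and were fed 2% carbonyl iron during the last 3 weeks. Wildtype mice stayed on standard chow, which held about 0.02% iron, and effects of genotype and of diet cannot be told apart. All mice were perfused with saline before the brain was taken. Labels do not say that each array held RNA of 1 mouse, so p-values measure the spread between these samples only.

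The 8 samples shared 1 Illumina MouseRef-8 v2 BeadChip, and signals are background-subtracted, cubic-spline normalized intensities in arbitrary units. Between 11188 and 11751 probes were detected per Hfe-/-xTfr2mut array and between 11568 and 12192 per Wildtype array. Before normalization, Wildtype replicate 1 was the brightest array, with a mean signal of 905, against 570 to 741 in the other 7 arrays. The detected Hfe probe gave signals of 314 to 356 in Hfe-/-xTfr2mut arrays and 123 to 139.9 in Wildtype arrays (limma, adjusted p = 2.29e-05). The other Hfe probe and the 2 Tfr2 probes were below detection throughout, and since the sources used here do not place the bright probe relative to the disruption, none of these checks the labels. Neuron and astrocyte markers were detected for 7 of 11 and 9 of 10 listed genes.

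Of the 8 detected genes, Egln1 and Hif1a had lower transcript levels in Hfe-/-xTfr2mut brain, and none was higher, at the study's own threshold of an unadjusted p under 0.05. For comparison, 12.5% of all detected genes passed this threshold, 5.71% as lower and 6.79% as higher. At a Benjamini-Hochberg adjusted p under 0.05 none of the 8 genes passed, as against 0.211% of all detected genes. With 4 arrays in each group, the number of arrays limits the precision of every value below.

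Among the oxygen and iron sensors, Egln1 (also called PHD2), the main hydroxylase of Hif1a protein in most tissues, carried 3 probes. The 2 that were detected in all 8 arrays passed as lower in the mutant group, as did 6.02% of all detected probes. The brightest Egln1 probe, ILMN_2617090, read 113, 136, 122 and 122 in Hfe-/-xTfr2mut arrays, against 205, 139.8, 154 and 173 in Wildtype arrays. Every Hfe-/-xTfr2mut value lay below every Wildtype value, although the highest of one group and the lowest of the other were close. Its level was 1.35-fold lower, with a mean of 123 ± 9.56 in Hfe-/-xTfr2mut and 168 ± 28.0 in Wildtype brain (SD, n = 4 each; log2 change −0.43, SE 0.13; limma, unadjusted p = 0.00551, adjusted p = 0.253). The two-sided exact permutation test over arrays gave p = 0.0286, the smallest that 4 against 4 arrays allow. Groups that did not overlap, in either direction, were seen for 8.05% of all detected genes.

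The second Egln1 probe, ILMN_2617087, read 103, 125, 86.2 and 117 in Hfe-/-xTfr2mut arrays and 159, 137, 130.5 and 132 in Wildtype arrays, again without overlap, as for 3.53% of all detected probes in this direction (log2 change −0.38, SE 0.13; limma, unadjusted p = 0.0128, adjusted p = 0.297). The third, ILMN_2617086, was the dimmest and read 65.8, 59.6, 68.8 and 60.8 in Hfe-/-xTfr2mut arrays and 82.6, 96.3, 104 and 61.4 in Wildtype arrays. Wildtype replicate 4 lay within the mutant range at this probe. It was detected in only 2 of the 4 Hfe-/-xTfr2mut arrays but in all 4 Wildtype arrays, so it passed the detection filter only through the group in which it was higher and is not counted with the others. Its log2 change of −0.41 (SE 0.15; limma, unadjusted p = 0.0221) lost the unadjusted threshold when any of 4 single arrays was left out. The 3 probes measure the same RNA samples and are not independent replicates. None was bright, since their mean signals stood at percentiles 18.3, 14.3 and 2.62 of all detected probes.

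**Figure D1:**
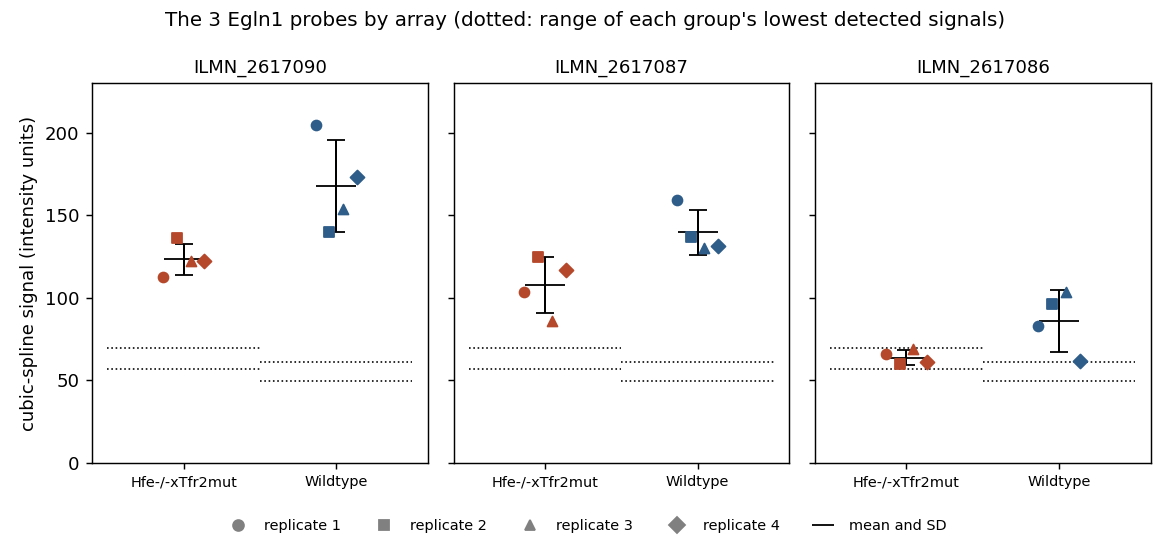
Signal of the 3 Egln1 probes (vertical axis, cubic-spline intensity units) in the 4 Hfe-/-xTfr2mut and 4 Wildtype arrays; symbols give the replicate number, bars the mean and SD, and dotted lines the range over arrays of the lowest signal that was called detected. The 2 brighter probes separate the groups, with means of 123 against 168 and 108 against 139.6, whereas the third lies near the detection limit and overlaps.

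The other prolyl hydroxylases were called in neither direction. Egln3 (PHD3), the family member known for its strong induction by hypoxia, read 164, 191, 185 and 211 in Hfe-/-xTfr2mut arrays, against 173, 187, 161 and 132 in Wildtype arrays. These ranges overlapped, and the log2 change of 0.21 had a 95% interval of −0.07 to 0.48 (limma, unadjusted p = 0.125). The Egln3 value was 0.057 in the average-normalized table and 0.11 without Wildtype replicate 4. Egln2 (PHD1), the remaining prolyl hydroxylase of the family, read 403, 370.0, 507 and 357 in Hfe-/-xTfr2mut arrays and 482, 402, 389 and 370.4 in Wildtype arrays. Means were 409 ± 67.9 in Hfe-/-xTfr2mut and 411 ± 49.0 in Wildtype brain (SD, n = 4 each). The 95% interval of the log2 change ran from −0.30 to 0.28 (limma, unadjusted p = 0.926). The Egln1 estimate lay outside it, but the Egln1 interval of −0.71 to −0.16 overlapped it.

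The difference between family members was itself tested within arrays, for 6 pairs of genes chosen after the values had been seen. The log2 signal of Egln1 minus that of Egln3 averaged −0.61 ± 0.13 in Hfe-/-xTfr2mut arrays and 0.04 ± 0.36 in Wildtype arrays (SD, n = 4 each), without overlap; since different probes are set against each other, only the shift between groups can be read. That shift of −0.64 gave p = 0.0286 in a two-sided exact permutation test, and 0.114 after adjustment over the 6 pairs. Egln1 minus Egln2 was shifted by −0.42 (exact permutation p = 0.0571, adjusted 0.114), and Egln2 minus Egln3 by −0.22 (exact permutation p = 0.257, adjusted 0.309). None of the 6 pairs passed the adjusted threshold. Hif1an (FIH), which hydroxylates an asparagine of the alpha subunit and so blocks its coactivators, was detected in no array, with signals of −7.99 to −5.14 in Hfe-/-xTfr2mut and −15.8 to −7.70 in Wildtype arrays. Negative values are those left below 0 by background subtraction.

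**Figure D2:**
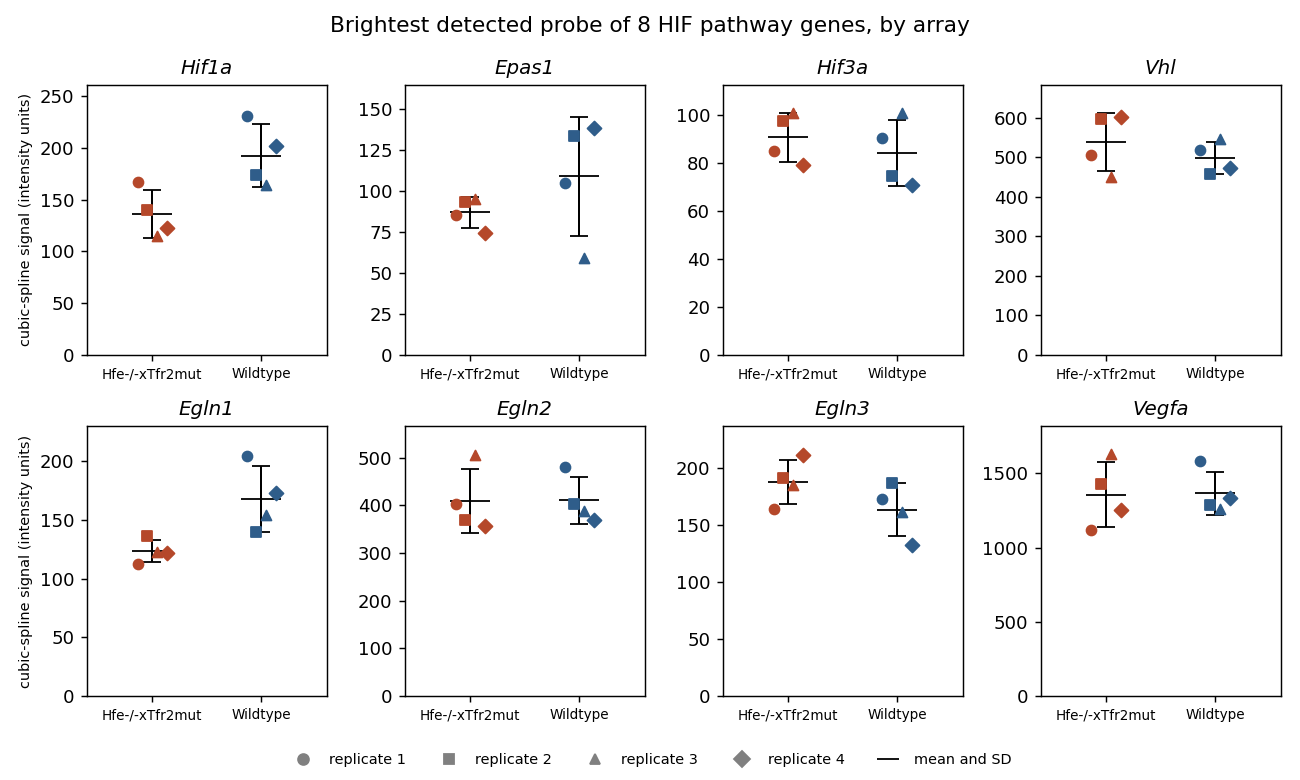
Cubic-spline signal (vertical axes, intensity units, each from 0) of the brightest detected probe of 8 genes in the 4 Hfe-/-xTfr2mut arrays, left, and the 4 Wildtype arrays, right; symbols give the replicate number, bars the mean and SD. Egln1 separates the groups, Hif1a leaves 1 Hfe-/-xTfr2mut array within the Wildtype range, Epas1 has 3 Wildtype arrays above and 1 below all Hfe-/-xTfr2mut arrays, and the other 5 genes overlap.

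Among the factors, Hif1a, the alpha subunit present in nearly all cells, was lower in Hfe-/-xTfr2mut brain. Its single probe read 167, 139.8, 115 and 122 in Hfe-/-xTfr2mut arrays, against 231, 174, 164 and 202 in Wildtype arrays. Replicates 2, 3 and 4 of the mutant group lay below all Wildtype arrays, and mutant replicate 1 lay just above the lowest of them. The mean was 1.42-fold lower, at 136 ± 23.0 in Hfe-/-xTfr2mut and 193 ± 30.3 in Wildtype brain (SD, n = 4 each; log2 change −0.50, SE 0.14, 95% interval −0.82 to −0.18; limma, unadjusted p = 0.00529, adjusted p = 0.2503). The two-sided exact permutation test gave p = 0.0571. This probe was not bright either, with a mean signal at percentile 21.4 of all detected probes. Leaving out any single array kept the log2 change of Hif1a between −0.61 and −0.41 and that of Egln1 between −0.52 and −0.33, each with an unadjusted limma p under 0.05.

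Epas1 (HIF-2alpha), the alpha subunit prominent in endothelium, whose mRNA is also bound by iron regulatory proteins, read 85.04, 92.8, 94.9 and 74.2 in Hfe-/-xTfr2mut arrays and 105, 133, 58.9 and 139 in Wildtype arrays. Wildtype replicate 3 gave the lowest reading of all 8 and was the only array in which the probe was not detected, while the other 3 Wildtype arrays lay above every Hfe-/-xTfr2mut array. With all arrays the log2 change was −0.26 (SE 0.23; limma, unadjusted p = 0.292). Without Wildtype replicate 3 it was −0.53 (SE 0.13; limma, unadjusted p = 0.0029, adjusted p = 0.174). The call for Epas1 was therefore decided by 1 array. Over all detected probes, calls also rose without Wildtype replicate 3, from 753 higher and 674 lower to 973 and 979 at the unadjusted threshold.

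Hif3a, an alpha subunit with splice forms that oppose the other alpha subunits, read 85.1, 97.5, 101 and 79.1 in Hfe-/-xTfr2mut arrays and 90.2, 74.5, 101 and 70.8 in Wildtype arrays, with full overlap (log2 change 0.12, SE 0.13; limma, unadjusted p = 0.406). Its sign turned in the average-normalized table, where the log2 change was −0.04, and it ranged from 0.038 to 0.21 with single arrays left out. Both probes of Arnt, the beta subunit common to all HIF dimers, were below detection in every array, and the brighter of them read 18.9 to 30.8 in Hfe-/-xTfr2mut and 11.2 to 35.3 in Wildtype arrays. Another 6 undetected probes belong to Epas1 (2), Hif3a (2), Egln3 (1) and Vegfa (1). Arnt2, a closely related partner found mainly in neurons, was detected and read 238 to 300 in Hfe-/-xTfr2mut arrays against 293 to 351 in Wildtype arrays (log2 change −0.22, SE 0.10; limma, unadjusted p = 0.0573). Hif1a minus Hif3a within arrays was shifted by −0.62 (exact permutation p = 0.0571, adjusted over the 6 pairs 0.114), and Hif1a minus Epas1 by −0.24 (exact permutation p = 0.457, adjusted 0.457).

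**Figure D3:**
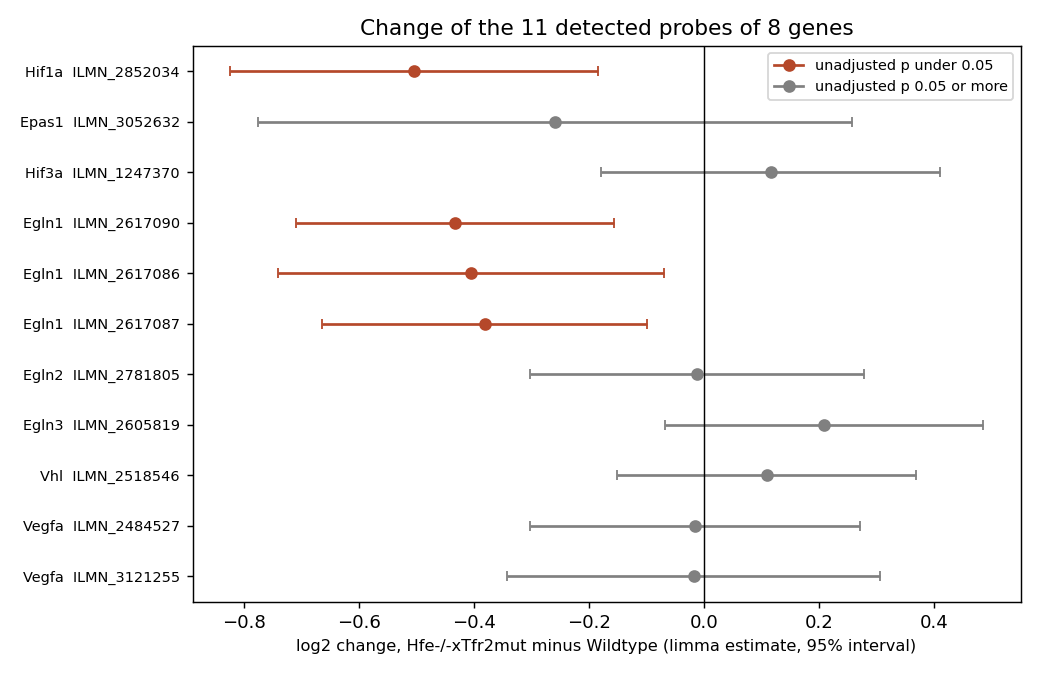
log2 change, Hfe-/-xTfr2mut minus Wildtype (horizontal axis; limma estimate with 95% interval), of the 11 detected probes of 8 genes, with the probe identifier beside each gene. Intervals of Hif1a and of the 3 Egln1 probes lie below 0, and those of the other 7 probes include 0.

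The array patterns most like that of Hif1a were sought by Pearson's r of log2 signal over the 8 arrays, among 10576 probes detected in all of them. Pcnx2 (r = 0.981), Atxn3 (r = 0.976), Tro (r = 0.971) and Ahcyl1 (r = 0.946) came closest. All 4 were lower in Hfe-/-xTfr2mut brain on average, with log2 changes of −0.22, −0.36, −0.25 and −0.29. The 8 points share the difference between groups and the same normalization, and the values are descriptions of these arrays.

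Sequence upstream of the transcription start is shown for the genes that differ most, Egln1 and Hif1a, and for Egln3 and Vegfa, known HIF targets that were not called. Each line gives 250 bases before a RefSeq start in GRCm38.p6, 5′ to 3′ on the gene's strand. Capitals mark the core of the HIF binding motif, ACGTG or GCGTG, searched on both strands, so that a match on the opposite strand reads CACGT or CACGC. In Hif1a the capitals CACGTG are 2 overlapping matches, 1 on each strand. The Hif1a window belongs to a start that lies inside the annotated gene, and the Vegfa window to its outermost start.
Egln1 (chr8:124949255-124949504, minus strand): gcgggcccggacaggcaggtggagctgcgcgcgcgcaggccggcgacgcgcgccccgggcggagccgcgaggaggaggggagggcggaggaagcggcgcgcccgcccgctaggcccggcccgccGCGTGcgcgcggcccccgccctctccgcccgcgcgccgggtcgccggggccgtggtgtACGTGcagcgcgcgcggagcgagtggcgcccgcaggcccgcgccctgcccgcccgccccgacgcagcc
Hif1a (chr12:73907617-73907866, plus strand): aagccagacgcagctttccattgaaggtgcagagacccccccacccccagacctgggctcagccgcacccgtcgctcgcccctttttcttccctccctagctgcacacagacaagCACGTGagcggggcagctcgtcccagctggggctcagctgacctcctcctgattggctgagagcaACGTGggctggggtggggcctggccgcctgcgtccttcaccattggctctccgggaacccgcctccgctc
Egln3 (chr12:54203875-54204124, minus strand): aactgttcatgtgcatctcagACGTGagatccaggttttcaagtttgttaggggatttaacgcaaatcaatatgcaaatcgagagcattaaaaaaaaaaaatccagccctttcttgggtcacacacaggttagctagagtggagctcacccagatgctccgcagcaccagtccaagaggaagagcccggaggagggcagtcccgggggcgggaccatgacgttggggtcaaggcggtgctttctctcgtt
Vegfa (chr17:46032378-46032627, minus strand): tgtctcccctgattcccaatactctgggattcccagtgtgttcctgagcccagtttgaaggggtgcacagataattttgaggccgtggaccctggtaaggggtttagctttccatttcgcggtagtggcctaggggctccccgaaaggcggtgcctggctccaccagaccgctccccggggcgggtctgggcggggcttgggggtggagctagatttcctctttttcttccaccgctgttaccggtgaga
Egln1 holds 2 matches, 126 and 68 bases before the start, Hif1a 3 matches, Egln3 1 match at 229 bases, and this Vegfa window none. A second Vegfa window, upstream of a start inside the gene and not shown, holds 2. Of the other windows not shown, those of Egln2 hold 4 (outermost start) and 1, and that of Hif3a 2. The Arnt window holds 1, and those of Vhl and Hif1an hold 0. Such matches are common, since 38.6% of the 32851 RefSeq windows of this length hold at least 1, and they are descriptions of letters, not of binding. Among the 10 genes, 9 have a window in the table, and for 7 of these at least 1 window holds a match, as for 41.5% of the 27025 genes with a window.

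Vhl, which recognizes hydroxylated alpha subunits, read 507, 598, 451 and 603 in Hfe-/-xTfr2mut arrays and 518, 457, 547 and 472 in Wildtype arrays. The groups overlapped (log2 change 0.11, SE 0.12; limma, unadjusted p = 0.376). The Vhl value was 0.0061 in the average-normalized table and ranged from 0.052 to 0.19 with single arrays left out. All 5 listed genes of the Vhl ubiquitin ligase were detected and none passed the unadjusted threshold, which 12.5% of all detected genes passed. Their median log2 change was 0.11, against 0.00 over all detected genes. Of 9 detected coactivators and stability factors of HIF, none passed either, with a median log2 change of 0.13. At that share, counts of 0 in lists this short are not a result about the lists.

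Vegfa, the vascular growth factor and a standard readout of HIF activity, read 1121, 1429, 1628 and 1254 in Hfe-/-xTfr2mut arrays and 1581, 1286, 1258 and 1337 in Wildtype arrays. Means were 1358 ± 219.9 in Hfe-/-xTfr2mut and 1365 ± 147 in Wildtype brain (SD, n = 4 each), and the 95% interval of the log2 change was −0.30 to 0.27 (limma, unadjusted p = 0.905). The second detected Vegfa probe gave a log2 change of −0.02 (SE 0.15), and the third was below detection. Hif1a minus Vegfa within arrays was shifted by −0.49 (exact permutation p = 0.114, adjusted over the 6 pairs 0.171).

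**Figure D4:**
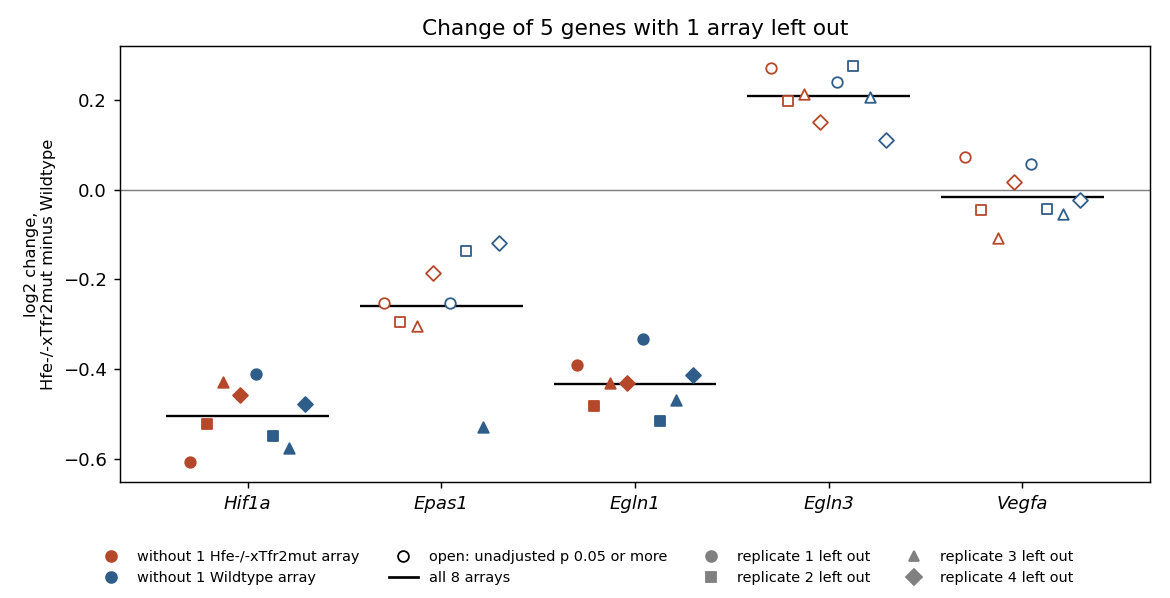
log2 change, Hfe-/-xTfr2mut minus Wildtype (vertical axis), of 5 genes with each array left out in turn; the line is the value with all 8 arrays, colour the group of the array left out, symbol its replicate number, and open symbols an unadjusted limma p of 0.05 or more. All Hif1a and Egln1 values are filled, and Epas1 has 1 filled value, at −0.53 without Wildtype replicate 3.

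Of 50 listed targets that are not among the 10 genes, 32 were detected, and 1 was higher and 5 were lower at the unadjusted threshold, 18.75% of those detected against 12.5% of all genes. Their log2 changes were positive for 12 and negative for 20, with a median of −0.06, and 49.9% of all detected genes had negative ones. Among the 14 detected targets of glucose metabolism only Pfkp, the platelet-type phosphofructokinase of glycolysis, passed: it read 1936, 1765, 1479 and 1572 in Hfe-/-xTfr2mut arrays and 2163, 2161, 2201 and 2078 in Wildtype arrays. The groups of Pfkp did not overlap (log2 change −0.36, SE 0.10; limma, adjusted p = 0.2503), while its 2 other detected probes gave −0.14 and −0.40. Pfkp lies on chromosome 13, 17.1 megabases from Hfe.

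Outside glucose metabolism, the transferrin receptor Tfrc, the iron carrier transferrin (Trf), the VEGF receptor Flt1 and the carbonic anhydrase Car12 were lower, and Ddit4, an inhibitor of mTOR signaling induced by hypoxia and other stress, was higher. Tfrc averaged 1247 ± 40.1 in Hfe-/-xTfr2mut and 1624 ± 163 in Wildtype brain (SD, n = 4 each) without overlap, and its second probe differed likewise (log2 changes −0.38 and −0.41). Tfrc mRNA is also stabilized by iron regulatory proteins. Of 7 detected genes of the iron-responsive element system, Tfrc alone passed the unadjusted threshold, 14.3% against 12.5% of all detected genes. Ddit4 averaged 892 ± 48.3 in Hfe-/-xTfr2mut and 767 ± 50.2 in Wildtype brain (SD, n = 4 each), also without overlap (log2 change 0.22, SE 0.09; limma, adjusted p = 0.366). Ddit4 was the single higher target, and that count was 0 in the average-normalized table. Groups did not overlap for 4 of the 32 targets, and for 8.05% of all detected genes. None of the 32 targets passed the adjusted threshold.

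Some receptors of the VEGF system were lower in Hfe-/-xTfr2mut brain at the unadjusted threshold. Of 10 listed genes 4 were detected in all 8 arrays, and Flt1 and Nrp1 of these passed as lower, set against 5.71% of all detected genes, with a median log2 change of −0.17. Vegfc also passed, but it was detected in only 3 Hfe-/-xTfr2mut but all 4 Wildtype arrays and so entered through the group in which it was higher; with it the median over 5 genes was −0.32. Flt1 (VEGF receptor 1) read 1055, 1153, 1456 and 1002 in Hfe-/-xTfr2mut arrays, against 1625, 1452, 1540 and 1513 in Wildtype arrays (log2 change −0.41, SE 0.12; limma, adjusted p = 0.266). Mutant replicate 3 lay just within the Wildtype range, and the other 3 mutant arrays lay below it. Nrp1, a coreceptor, had a log2 change of −0.32 (SE 0.12) at its brighter probe but −0.15 (SE 0.18) at the other, and Vegfc, the lymphatic growth factor, −0.50 (SE 0.20). Flt1 passed whichever array was left out. Nrp1 lost the unadjusted threshold without mutant replicate 1 or Wildtype replicate 1, and Vegfc without mutant replicate 2 or 4 or Wildtype replicate 1 or 4. Vegfb, a further ligand, overlapped fully (log2 change 0.01, SE 0.13). Flt1 lies on chromosome 5, 9.99 megabases from Tfr2, and none of the 10 genes lies on chromosome 5 or 13. The part of nearness to the disrupted genes in these values was not tested.

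Some markers of blood vessel cells were lower as well. Of 15 listed endothelial and pericyte genes 6 were detected in all 8 arrays, and 3 of these passed as lower (Vtn, Flt1 and Tek) and 0 as higher, with a median log2 change of −0.29, set against 5.71% and 6.79% of all detected genes. Slco1a4, called lower, was detected in 1 of 4 Hfe-/-xTfr2mut and all 4 Wildtype arrays, and Cspg4, called higher, in all 4 Hfe-/-xTfr2mut and 3 Wildtype arrays, so each entered only through the group in which it was higher. With these 2 genes the summed signal was 3642 to 5047 in Hfe-/-xTfr2mut arrays and 5075 to 5287 in Wildtype arrays. Its brightest genes are Vtn and Flt1, already called lower, so the sum is not a separate result. Ly6c1, Rgs5 and Esam, also detected in all 8 arrays, did not pass, with log2 changes of −0.16, −0.10 and −0.06. The defining endothelial genes Pecam1, Cdh5 and Tie1 had probes that were below detection, and Cldn5 had none, so that the list rests on few cell type-defining genes. In RNA of brain tissue, fewer cells of a type and less RNA per cell cannot be told apart. The part of vessel cells in the lower Flt1, Hif1a and Egln1 signals was not tested.

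Red blood cell genes differed the other way. Hba-a1 and Hbb-b2, the 2 detected hemoglobin genes, had a summed signal of 1706 to 4916 in Hfe-/-xTfr2mut arrays and 1210 to 2203 in Wildtype arrays, with log2 changes of 1.06 and 1.32. Mutant replicate 4 lay within the Wildtype range, and the part of residual blood in these values was not tested. Hbb-b2 (log2 change 1.32) was detected in all 4 Hfe-/-xTfr2mut but only 3 Wildtype arrays, so it entered only through the group in which it was higher. With Hbb-b2 the summed signal was 1706 to 4916 in Hfe-/-xTfr2mut arrays and 1210 to 2203 in Wildtype arrays.

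Other cell type markers shifted by smaller amounts. All 8 detected oligodendrocyte genes had negative log2 changes, with a median of −0.17, and all 7 detected microglia genes positive ones, with a median of 0.20. Of all 8051 detected genes, 4037 had positive and 4014 (49.9%) negative log2 changes. At the unadjusted threshold, which 12.5% of all detected genes passed, Cnp was the 1 lower oligodendrocyte gene, and Aif1 and Trem2 were higher among the microglia genes. The study, by a different analysis, also reported Mobp, Cldn11 and Mog as lower. Here the brightest probes of these genes had log2 changes of −0.16, −0.18 and −0.16 and did not pass, and their other probes are not given. Aldh1l1 among 9 astrocyte genes (median −0.07), Syt1 among 7 neuron genes (median −0.13) and Kl among 6 choroid plexus genes (median −0.11) were each the only gene that passed, and each was lower. The part of these cell types in the lower Hif1a and Egln1 signals was not tested. Kl lies on chromosome 5, 13.4 megabases from Tfr2.

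**Figure D5:**
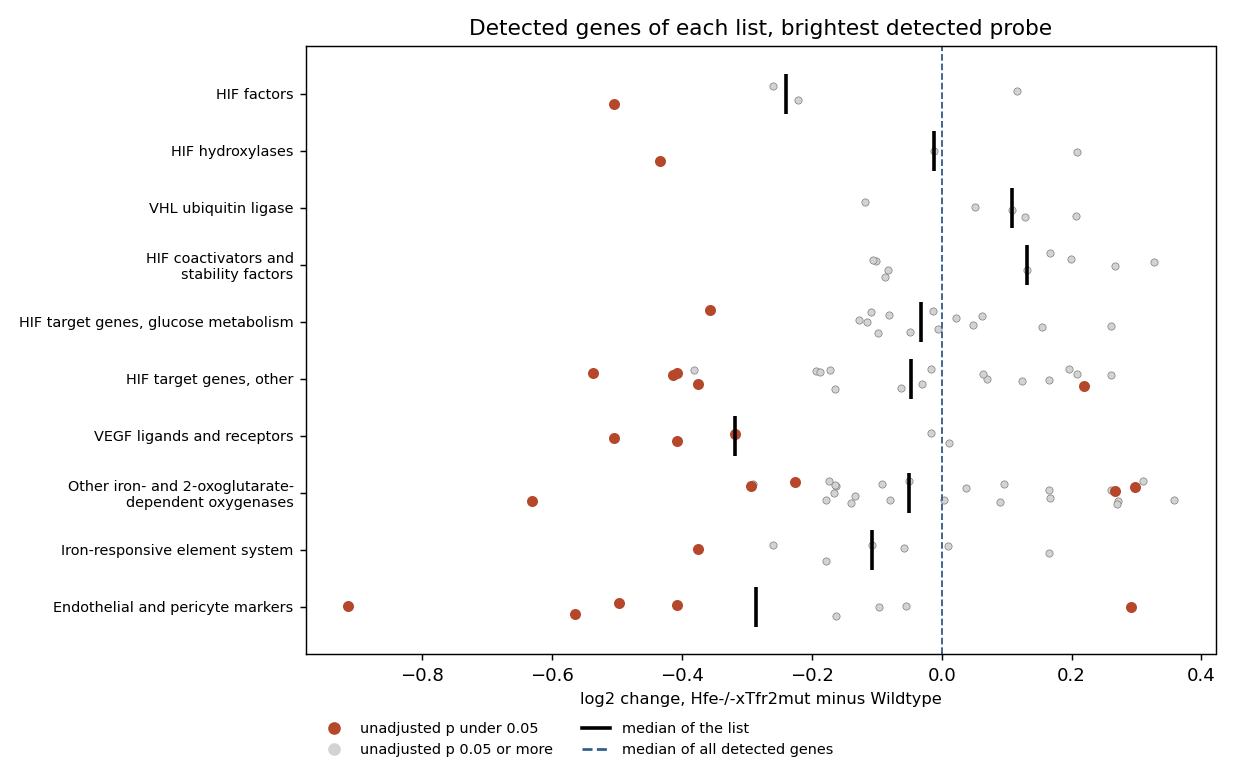
log2 change, Hfe-/-xTfr2mut minus Wildtype (horizontal axis), of the brightest detected probe of each detected gene in 10 lists; each point is a gene, red where the unadjusted limma p was under 0.05, black bars are list medians and the dashed line is the median of all 8051 detected genes. Some genes stand in more than 1 list. Lists here include genes detected in all arrays of only 1 group. Medians of the VEGF (−0.32), vessel marker (−0.29), HIF factor (−0.24) and iron-responsive element (−0.11) lists lie left of the dashed line. Those of the Vhl ubiquitin ligase (0.11) and coactivator (0.13) lists lie right of it, and those of the HIF target lists lie near it. With only genes detected in all 8 arrays the VEGF median was −0.17 and the vessel marker median −0.29.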

How the data were processed

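Brain RNA of Hfe-/-xTfr2mut and Wildtype mice, 4 samples of each group, was hybridized to 1 BeadChip. The authors subtracted background and normalized in GenomeStudio, and deposited intensity values without normalization and after Average or Cubic Spline normalization, each with a deposited detection p-value. Probe annotation was updated through Entrez identifiers to RefSeq (GRCm38.p6) for 23962 probes; 23978 have 1 symbol and 1719 none. Cubic-spline signals under 10 were set to 10, log2-transformed and fitted with limma 3.58.1 in R 4.3.3 (2 groups, Hfe-/-xTfr2mut minus Wildtype, Benjamini-Hochberg over 11204 probes). Genes are represented by their brightest detected probe. The study applied no correction for multiple tests. The script was tested on simulated arrays.

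The 10 genes, the lists and the tests were chosen with earlier results of these data known, and lists of targets and markers were written by hand from general knowledge. Genes named are all probes of the 10 genes, in each pathway list the 4 passing genes of lowest p or fewer, 2 genes of lowest p per marker list, the 4 nearest patterns to Hif1a, and Hfe and Tfr2. Not every gene this rule takes is printed. Arnt2, Vegfb, Ddit4, Tek, Cspg4, Ly6c1, Rgs5, Esam, Phf2, Mobp, Cldn11, Mog and undetected markers were named after their values were seen. Motif searches used RefSeq upstream windows. Protein sequences and iron-responsive elements are not shown here.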

Additional observations from a re-analysis of the deposited data

How the results depend on the processing

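Alternatives were the average-normalized table, quantile and neqc normalization, floors of 1 and 30, 3 other detection filters, the replicate block, BeadChip position, the mean of all probes and leaving out each array. The log2 change of Hif1a stayed between −0.65 and −0.41 and that of Egln1 between −0.58 and −0.33, with unadjusted p up to 0.0181 and 0.0193 and no adjusted p below 0.133; none of the 8 genes passed the adjusted threshold in any setting.

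In the average-normalized table Hif3a turned to −0.036, the HIF target median was −0.12 and 0 targets were higher; there 356 probes were higher and 1489 lower at the unadjusted threshold, against 753 and 674, so that 19.3% of calls were higher against 52.8%, and the median of all probes was −0.09. Egln2 turned to 0.019 with the position covariate. Egln3 was 0.057 and Vhl 0.0061 in the average-normalized table. Leaving out single arrays gave 0.11 to 0.28 for Egln3, 0.052 to 0.19 for Vhl, 0.038 to 0.21 for Hif3a, −0.12 to 0.067 for Egln2, −0.11 to 0.072 for Vegfa, −0.12 to 0.077 for its second probe, −0.53 to −0.12 for Epas1, −0.56 to −0.31 for the third Egln1 probe, 0 to 3 higher HIF targets and a HIF target median of −0.078 to −0.016. Higher targets numbered 0 with the replicate block or the position covariate. The third Egln1 probe lost the unadjusted threshold without a detection filter (limma, unadjusted p = 0.0503). Vegfc lost it without a filter or with the position covariate, and 1 to 3 VEGF genes were lower with an array left out.

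Over all probes, 16 were higher and 3 lower at the adjusted threshold. Those lower numbered 5 in the average-normalized table, with floor 30 or with detection in at least 1 array, 0 with detection in all 8 arrays and 3 to 8 with an array left out; those higher numbered 4 without a filter and 10 to 18 with an array left out. The cause of these shifts was not tested.

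Replicate numbers mark only neighbouring BeadChip positions, and deviations of same-numbered arrays correlated at −0.40 to 0.13, over 0.1 in 2 of 4 pairs, so the numbers were not taken as pairs. With the replicate block Hif1a had a limma adjusted p of 0.338 and Egln1 one of 0.447, and no call of the 8 genes changed.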

Other observations

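Prolyl hydroxylases of the Egln family belong to a large group of oxygenases that use iron and 2-oxoglutarate, including histone and nucleic acid demethylases. Of 50 other listed members of that group 27 were detected; at an unadjusted p under 0.05 in limma, Alkbh7 and Jmjd6 were higher and Ogfod1 and Phf2 lower in Hfe-/-xTfr2mut brain, and 12.5% of all detected genes passed. A separate fit kept only probes detected in all 8 arrays. In that fit 24 of these genes remained, 3 higher and 2 lower, with a median log2 change of 0.02. Counts over the 27 genes also depended on the setting. They were 0 higher and 5 lower in the average-normalized table, and 0 higher and 2 lower without mutant replicate 2. Without Wildtype replicate 3 there were 5 in each direction. Alkbh7, a mitochondrial member, averaged 1020.5 ± 87.4 in Hfe-/-xTfr2mut and 834 ± 118 in Wildtype brain (SD, n = 4 each), and the groups overlapped. Kdm4a, a histone lysine demethylase, averaged 43.1 ± 11.1 in Hfe-/-xTfr2mut and 65.5 ± 4.98 in Wildtype brain (SD, n = 4 each), with a log2 change of −0.63 (SE 0.15; limma, adjusted p = 0.197). It was detected in 1 of 4 Hfe-/-xTfr2mut arrays and in all 4 Wildtype arrays, so it passed the filter only through the group in which it was higher. Phf2 lies on chromosome 13, 25.1 megabases from Hfe. None of the 27 passed the adjusted threshold.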
